A study of Mus musculus with 24 samples.

Results

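Interleukin-2 (IL-2) acts on T cells through a receptor of an alpha, a beta and a common gamma chain, and the beta and gamma chains hold the Janus kinases JAK1 and JAK3. Bound receptor leads these kinases to phosphorylate STAT5A and STAT5B, which enter the nucleus and switch on genes that include the receptor's own alpha chain and the suppressors of the pathway. Those suppressors, CISH and the SOCS proteins, bind receptors or kinases and dampen the signal, and the interleukin-7 (IL-7) receptor, which keeps resting T cells alive, shares the gamma chain and JAK3 with the IL-2 receptor. Values are given here for 10 genes of this pathway, Il2ra, Il2rb, Il2rg, Il7r, Jak3, Stat5a, Cish, Socs1, Socs2 and Socs3, chosen by name from 55414 genes listed, of which 25030 had a count in any library. Earlier results of these data were known when the 10 genes were chosen. All 10 passed the filter on low counts, which left 10566 genes tested.

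The 24 libraries came from splenic T cells that the labels call TE cells and the study's methods describe as CD4+ CD25- conventional T cells, isolated on magnetic beads from mice that were mostly 2 to 3 months old. All mice had C57BL/6J nuclear DNA, and their mitochondrial DNA came from C57BL/6J (label WT, here mtDNA B6) or from the NZB strain (label NZB, here mtDNA NZB). Cells of each mtDNA were labelled RES, here resting, or ACT, here activated for 72 h with beads that engage CD3 and CD28, with 6 libraries in each of the 4 groups. The methods sentence on activation names IL-2 beside the beads and can be read as meaning both regulatory and conventional cells, so whether the activated cells received added IL-2 is uncertain. CD25 is the protein of Il2ra, so the resting cells had been depleted of cells with the protein of one of the genes described. Nothing in the labels ties replicates to separate mice, so p-values measure the spread between libraries, which may be technical. Sample descriptions carry numbers that some resting and activated libraries share, and no label says what the numbers mean.

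Each library was a 3' end library counted by unique molecular identifiers (UMIs), and the libraries held 51409 to 6449395 UMI counts. Levels are given as CPM, the UMIs of a gene per 1000000 UMI counts of the library after TMM scaling, and differences as log2 fold changes with their SE. A gene was called when its p-value from edgeR's quasi-likelihood test, adjusted by Benjamini-Hochberg over 10566 genes, was at most 0.05, with no limit on fold size. The smallest library, resting mtDNA NZB replicate 2, held 0 to 22 UMIs of each of the 10 genes, and a count of 0 in it allows a level of up to 50.8 CPM (3 counts; counting error only). T cell markers (Cd3e, Cd3d, Cd3g, Cd4, Cd28 and Lck) were detected in every group, with a summed median of 2451 to 2634 CPM. The activation markers were Cd69, Cd44, Mki67 and Tfrc. Of these 4, 1 was called higher and 1 lower in mtDNA B6, and 1 higher and 2 lower in mtDNA NZB. Cd69 went from a median of 62.7 to 3.88 CPM in mtDNA B6 and of 69.1 to 5.39 CPM in mtDNA NZB. Mki67 went from 43.0 to 138 CPM and from 21.95 to 145.5 CPM. Markers of other cells moved with activation. Of 3 natural killer markers, Ncr1 had a median of 0 to 0.430 CPM in the 4 groups, and Klrb1c, the one tested, fell in both mtDNA groups, from a median of 8.13 to 1.94 CPM in mtDNA B6 and of 8.40 to 0.955 CPM in mtDNA NZB; their summed median went from 8.96 to 3.19 CPM and from 10.7 to 2.61 CPM. All 5 myeloid, 6 granulocyte and 4 erythroid markers fell in both mtDNA groups, with the summed granulocyte median at 1786 CPM in resting and 15.9 CPM in activated mtDNA B6 libraries. Both CD8 T cell markers, Cd8a and Cd8b1, rose, from a summed median of 68.6 to 277 CPM in mtDNA B6 and of 51.9 to 165 CPM in mtDNA NZB. None of 4 B cell markers was called. Of 4 regulatory T cell markers, 1 was called higher and 1 lower in mtDNA B6, and 2 higher and 0 lower in mtDNA NZB. The part of these cells in the results that follow was not tested, and in such bulk samples fewer cells of a type and less RNA per cell cannot be told apart.

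Activation raised the IL-2 receptor alpha and beta chains and 3 of the 4 suppressors in cells of either mtDNA, while the IL-7 receptor fell and the gamma chain did not pass the test. In mtDNA B6 cells 6 of the 10 genes were called higher and 2 lower, against 22.4% and 24.5% of all genes tested. In mtDNA NZB cells 6 were called higher and 2 lower, against 25.2% and 28.4% of all genes. The 6 that rose were Il2ra, Il2rb, Jak3, Cish, Socs1 and Socs2 in both. The median log2 fold change of the 10 genes was 0.83 in mtDNA B6 and 1.05 in mtDNA NZB, beside -0.03 and -0.06 over all genes.

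**Figure D1:**
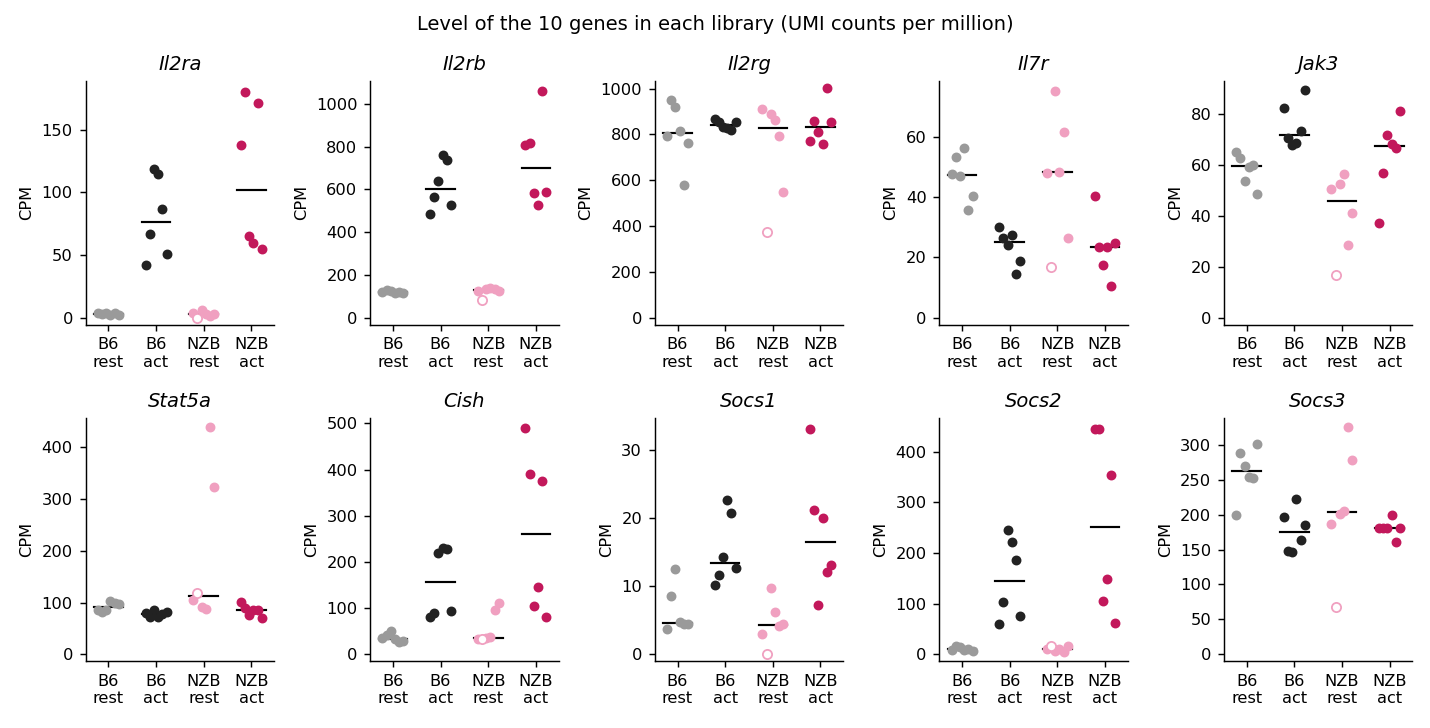
CPM (vertical axes, linear) of the 10 genes in each of 24 libraries, with 6 points a group, a horizontal bar at the group median and an open circle for the smallest library, resting mtDNA NZB replicate 2. Il2ra, Il2rb and Socs2 show no overlap between resting and activated libraries, Il2rg overlaps throughout, and Stat5a stands at 323 and 439 CPM in 2 resting mtDNA NZB libraries.

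Il2ra (ENSMUSG00000026770, chr2:11647618-11698004, plus strand, GRCm39) encodes the alpha chain, which turns the receptor into its high-affinity form. Resting mtDNA B6 libraries held a lowest, median and highest level of 1.88, 3.17 and 4.05 CPM, and activated ones of 42.0, 76.3 and 118 CPM. In mtDNA NZB cells the same values were 0, 3.00 and 5.71 CPM at rest and 54.4, 102 and 180 CPM after activation. Every activated library therefore stood above every resting one in both mtDNA groups. The log2 fold change was 4.68 (SE 0.38, adjusted p = 3.65e-10) in mtDNA B6, or 25.6-fold, and 5.00 (SE 0.41, adjusted p = 4.84e-10) in mtDNA NZB, or 32.1-fold. These folds stand against cells that had been depleted of CD25 protein.

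Il2rb (ENSMUSG00000068227, chr15:78363456-78395566, minus strand) encodes the beta chain, which carries most of the docking sites for STAT5 and also serves the IL-15 receptor. It lay between 113 and 127 CPM (median 120) in resting mtDNA B6 libraries and between 485 and 760 CPM (median 601) in activated ones. In mtDNA NZB libraries it lay between 84.7 and 138 CPM (median 129) at rest and between 528 and 1059 CPM (median 699) after activation. The lowest activated library was thus above the highest resting one in each mtDNA group. Il2rb rose 5.17-fold in mtDNA B6 (log2 fold change 2.37, SE 0.15, adjusted p = 3.64e-12) and 5.71-fold in mtDNA NZB (2.51, SE 0.16, adjusted p = 3.24e-12).

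Il2rg (ENSMUSG00000031304, chrX:100307984-100311861, minus strand) encodes the common gamma chain, which the receptors of IL-2, IL-4, IL-7, IL-9, IL-15 and IL-21 share. Its level ran from 581 to 952 CPM (median 806) in resting and from 822 to 869 CPM (median 843) in activated mtDNA B6 libraries. In mtDNA NZB libraries it ran from 373 to 913 CPM (median 828) and from 758 to 1002 CPM (median 835). The activated libraries sat inside the resting range in mtDNA B6 and overlapped it in mtDNA NZB. Neither difference passed the test, with 95% intervals of -0.24 to 0.37 in mtDNA B6 and -0.14 to 0.48 in mtDNA NZB. The adjusted p-values were 0.732 and 0.336.

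Il7r (ENSMUSG00000003882, chr15:9505874-9530262, minus strand) encodes the IL-7 receptor alpha chain, a mark of naive and memory cells. In mtDNA B6 it ran from 35.6 to 56.4 CPM (median 47.3) at rest and from 14.6 to 30.0 CPM (median 25.2) after activation, with no overlap. In mtDNA NZB it ran from 16.9 to 75.2 CPM (median 48.2) and from 10.5 to 40.3 CPM (median 23.5), and the groups overlapped. The lowest resting value, 16.9 CPM, came from 1 UMI in the smallest library. Il7r fell by 0.98 on the log2 scale in mtDNA B6 (SE 0.24, adjusted p = 0.00134) and fell by 1.21 in mtDNA NZB (SE 0.25, adjusted p = 0.000243). After thinning to 600000 UMI counts the values were -0.85 (adjusted p = 0.329), no longer called, and -1.50 (adjusted p = 0.0472).

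Jak3 (ENSMUSG00000031805, chr8:72123007-72143225, plus strand) encodes the kinase held by the gamma chain. Resting mtDNA B6 libraries ran from 48.5 to 65.4 CPM (median 59.6) and activated ones from 68.1 to 89.5 CPM (median 72.1). In mtDNA NZB the ranges were 16.9 to 56.5 CPM (median 46.0) and 37.4 to 81.4 CPM (median 67.6). The rise was small beside those of the receptor chains, and the groups overlapped in mtDNA NZB. It came to 0.37 on the log2 scale in mtDNA B6 (SE 0.15, adjusted p = 0.0462) and 0.52 in mtDNA NZB (SE 0.16, adjusted p = 0.00878). The mtDNA B6 call was lost when any of 11 libraries was left out (activated mtDNA NZB replicates 4 and 5, activated mtDNA B6 replicates 1, 2, 5 and 6 and resting mtDNA B6 replicates 2 to 6), with values of 0.32 to 0.41 over all 24 such fits. In mtDNA NZB the call was lost under 7 alternatives, with 0.35 (adjusted p = 0.0576) when resting replicates 2, 5 and 6 were left out. After thinning to 600000 UMI counts the values were 0.42 (adjusted p = 0.49) in mtDNA B6 and 0.13 (adjusted p = 0.857) in mtDNA NZB. With library set as a term, the mtDNA B6 value was 0.19 (adjusted p = 0.462). The sets are 3 groups of 8 libraries told apart by reads per UMI. Sets 1, 2 and 3 held 5, 1 and 0 activated mtDNA B6 libraries and 0, 4 and 2 resting ones. In mtDNA NZB they held 2, 2 and 2 activated libraries and 1, 1 and 4 resting ones. Only set 2 held both states of mtDNA B6, so this term can hardly separate set from activation there.

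Stat5a (ENSMUSG00000004043, chr11:100750177-100776065, plus strand) encodes one of the transcription factors that carry the signal. In mtDNA B6 it ran from 81.8 to 102 CPM (median 91.1) at rest and from 71.8 to 85.9 CPM (median 78.7) after activation, a log2 fold change of -0.23 (SE 0.28, adjusted p = 0.524). In mtDNA NZB it ran from 87.0 to 439 CPM (median 112) at rest and from 70.1 to 102 CPM (median 85.4) after activation. There it fell by 1.27 on the log2 scale (SE 0.29, adjusted p = 0.000642). That fall rested on resting replicates 5 and 6, at 439 and 323 CPM: without both the value was -0.14 (adjusted p = 0.303).

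**Figure D2:**
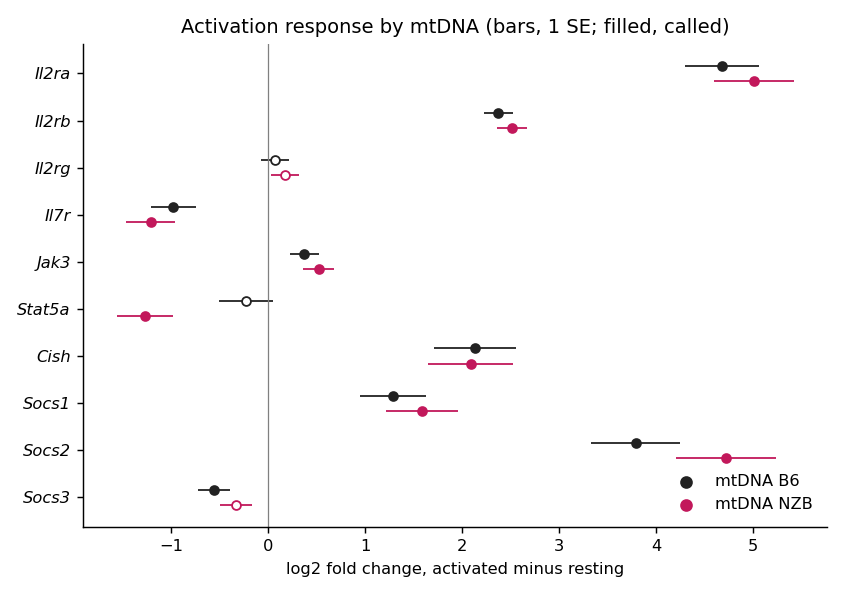
Log2 fold change of activated over resting libraries (horizontal axis) for the 10 genes in mtDNA B6 and mtDNA NZB cells, with bars of 1 SE and filled points for values called at an adjusted p of at most 0.05. Il2ra, Il2rb and Socs2 lie farthest to the right in both, and Stat5a and Socs3 are called in 1 mtDNA group each.

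The suppressors split, with CISH, SOCS1 and SOCS2 transcripts rising and Socs3 not. Cish (ENSMUSG00000032578, chr9:107173225-107179983, plus strand) encodes a STAT5-induced inhibitor that binds activated receptors. It ran from 26.1 to 50.9 CPM (median 33.4) in resting and from 80.7 to 231 CPM (median 157) in activated mtDNA B6 libraries, without overlap. In mtDNA NZB it ran from 33.7 to 112 CPM (median 36.3) and from 80.3 to 489 CPM (median 261), with overlap. Its highest resting values, 95.8 and 112 CPM, were in replicates 5 and 6. Cish rose 4.39-fold in mtDNA B6 (log2 fold change 2.13, SE 0.42, adjusted p = 0.000188) and 4.24-fold in mtDNA NZB (2.08, SE 0.44, adjusted p = 0.000283). Without resting mtDNA NZB replicates 5 and 6, the latter value was 2.92 (adjusted p = 4.18e-05).

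Socs2 (ENSMUSG00000020027, chr10:95219523-95253929, minus strand) encodes a suppressor best known for restraining growth hormone signals, and is itself a STAT5 target. Its level was 6.39 to 15.6 CPM (median 10.4) in resting and 59.6 to 246 CPM (median 144) in activated mtDNA B6 libraries. In mtDNA NZB libraries it was 5.04 to 16.9 CPM (median 10.3) and 61.0 to 445 CPM (median 251). Resting and activated libraries did not overlap in either. Socs2 rose 13.8-fold in mtDNA B6 (log2 fold change 3.79, SE 0.46, adjusted p = 3.3e-07) and 26.3-fold in mtDNA NZB (4.72, SE 0.52, adjusted p = 4.56e-08).

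Socs1 (ENSMUSG00000038037, chr16:10600104-10603875, minus strand) encodes a direct inhibitor of Janus kinases. It was the lowest counted of the suppressors, at 3.74 to 12.5 CPM (median 4.61) in resting and 10.2 to 22.7 CPM (median 13.4) in activated mtDNA B6 libraries. In mtDNA NZB it was 0 to 9.74 CPM (median 4.27) and 7.20 to 33.1 CPM (median 16.5). The groups overlapped in both, and the gene nonetheless rose by 1.28 (SE 0.34, adjusted p = 0.00293) and 1.58 (SE 0.37, adjusted p = 0.000923) on the log2 scale. After thinning to 600000 UMI counts the values were 0.47 (adjusted p = 0.801) and 2.13 (adjusted p = 0.115), and neither was called.

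Socs3 (ENSMUSG00000053113, chr11:117856905-117860898, minus strand) encodes the suppressor of receptors that signal through gp130, the IL-6 family among them. Resting mtDNA B6 libraries held 200 to 301 CPM (median 262) and activated ones 146 to 222 CPM (median 175). Resting mtDNA NZB libraries held 67.8 to 326 CPM (median 203) and activated ones 161 to 199 CPM (median 181). The groups overlapped in both. Socs3 fell by 0.56 on the log2 scale in mtDNA B6 (SE 0.16, adjusted p = 0.0056). With library set as a term the value was -0.50 (adjusted p = 0.0747), and after thinning to 600000 UMI counts it was -0.62 (adjusted p = 0.0885). The mtDNA NZB difference of -0.33 (SE 0.16, adjusted p = 0.092) was not called, was -0.36 (adjusted p = 0.0311) without the smallest library, resting replicate 2, and was -0.0018 (adjusted p = 0.995) without resting replicates 5 and 6.

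STAT5 dimers bind a palindrome whose letters are TTCNNNGAA, where N is any base, and it reads the same on both strands. The motif was searched in 300 bases around 1 start per gene, that of the annotation's canonical transcript (250 before, 50 from the start on; GRCm39), which for Il2rb, Il7r, Jak3, Socs2 and Socs3 is not the outer end of the gene, and 3 of the 10 genes held a match, beside 8.77% of 21247 promoters. The matches follow with 10 flanking bases on each side, read on the gene's strand, because they stand at one gene that rose and a pair that did not.
Il7r, chr15:9530086-9530114, minus strand: gttcaggagcTTCAGGGAAtaccaagatg
Socs1, chr16:10603835-10603863, minus strand: gctagccgggTTCCAAGAAgggtcgagat
Socs3, chr11:117860328-117860356, minus strand: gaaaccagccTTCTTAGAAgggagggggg
The capitals mark the motif, which began 183 and 223 bases before the start in Il7r and Socs3 and 22 bases past it in Socs1. Il7r fell on activation in both mtDNA groups, Socs1 rose in both, and Socs3 fell in mtDNA B6. A match is a run of letters and not a measured site, and no match in the windows of Il2ra, Cish and Socs2 says only that these letters were not in those 300 bases.

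The other genes of the pathway comprised 49 listed ligands, receptors, kinases, STATs, inhibitors and STAT5 target genes, of which 44 were tested. In mtDNA B6 cells 14 were called higher and 7 lower, and in mtDNA NZB cells 10 higher and 15 lower. These are 31.8% and 15.9% in mtDNA B6, beside 22.4% and 24.5% of all genes tested, and 22.7% and 34.1% in mtDNA NZB, beside 25.2% and 28.4%. Their median log2 fold changes were 0.16 and -0.26, beside -0.03 and -0.06 over all genes. Without resting mtDNA NZB replicates 5 and 6, 10 were called higher and 10 lower in mtDNA NZB, or 22.7% each way beside 26.7% and 23.3% of all genes in that fit. The ligands were scarce. Il2 had a median of 2.36 CPM in resting and 3.18 CPM in activated mtDNA B6 libraries, and Il4 of 5.79 and 5.62 CPM. In mtDNA NZB the medians were 3.92 and 4.12 CPM for Il2 and 7.09 and 4.21 CPM for Il4. None of these 4 activation differences passed the test, and Il7, Il9, Il15 and Il21 were too low to test, with 10, 2, 142 and 68 UMIs in all 24 libraries.

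Of 11 receptor genes tested, 4 rose and 4 fell in mtDNA B6, beside 22.4% and 24.5% of all genes. In mtDNA NZB 4 rose and 5 fell, beside 25.2% and 28.4% of all genes. Without resting mtDNA NZB replicates 5 and 6, 2 rose and 5 fell in mtDNA NZB, and Il15ra, at 0.42 (adjusted p = 0.132), and Il10ra, at 0.41 (adjusted p = 0.111), were no longer called. Both chains of the IL-12 receptor led the rises. Il12rb2, the signalling chain kept by T helper 1 cells, went from a median of 1.02 to 17.4 CPM in mtDNA B6 (log2 fold change 3.98, SE 0.39, adjusted p = 1.03e-08) and of 1.31 to 10.9 CPM in mtDNA NZB (3.05, SE 0.42, adjusted p = 1.36e-06). Il12rb1, the chain shared with the IL-23 receptor, rose from 13.9 to 56.7 CPM (2.20, SE 0.22, adjusted p = 2.09e-08) and from 12.5 to 54.2 CPM (2.43, SE 0.25, adjusted p = 1.54e-08). The receptors of IL-6 went the other way. Il6ra, its binding chain, had medians of 156 and 70.9 CPM in resting and activated mtDNA B6 libraries and fell by 0.98 (SE 0.16, adjusted p = 1.72e-05), and it fell by 1.14 in mtDNA NZB (SE 0.17, adjusted p = 3.29e-06). Il6st, which encodes gp130, fell by 0.85 (SE 0.19, adjusted p = 0.000826) and 1.26 (SE 0.20, adjusted p = 1e-05). Il9r, at a median of 5.41 CPM or less in every group, fell by 1.43 in mtDNA B6 (SE 0.40, adjusted p = 0.00457) and 0.98 in mtDNA NZB (SE 0.41, adjusted p = 0.0462). The last 1000 bases of Il12rb2 overlap Serbp1 on the other strand, which held 123297 UMIs, and no source used here says whether counting used strand.

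Of 3 other kinases, none was called in mtDNA B6. Jak1, the partner of the beta chain, and Jak2 fell in mtDNA NZB, by 0.66 (SE 0.17, adjusted p = 0.00254) and 0.48 (SE 0.16, adjusted p = 0.0137). Without resting mtDNA NZB replicates 5 and 6 these values were -0.32 (adjusted p = 0.0787) and -0.08 (adjusted p = 0.655). Tyk2 had differences of -0.13 (SE 0.15, adjusted p = 0.472) and -0.07 (SE 0.16, adjusted p = 0.716), the latter being -0.31 (adjusted p = 0.0389) without those replicates. Stat4, which IL-12 acts through, rose by 1.22 in mtDNA B6 (SE 0.30, adjusted p = 0.00195), with 0.72 in mtDNA NZB (SE 0.33, adjusted p = 0.0636) that was 1.28 (adjusted p = 0.0059) without resting replicates 5 and 6. Stat2 rose by 0.40 in mtDNA B6 (SE 0.15, adjusted p = 0.0346), with 0.37 in mtDNA NZB (SE 0.16, adjusted p = 0.0573). Stat3, the main factor downstream of IL-6, rose by 0.55 in mtDNA B6 (SE 0.17, adjusted p = 0.00795), with -0.19 in mtDNA NZB (SE 0.17, adjusted p = 0.35) that was 0.32 (adjusted p = 0.0219) when those replicates were left out. Stat5b, the close relative of Stat5a, had a difference of -0.13 in mtDNA B6 (SE 0.14, adjusted p = 0.434) and fell by 0.61 in mtDNA NZB (SE 0.14, adjusted p = 0.000701), or by 0.22 (adjusted p = 0.0699) when the same replicates were left out. Stat6, the factor of IL-4 signals, fell by 0.28 (SE 0.10, adjusted p = 0.0248) and 0.38 (SE 0.10, adjusted p = 0.00325). The end of the Stat6 gene overlaps Nab2 on the other strand, which held 7401 UMIs against 9206 for Stat6. Whether counting used strand is not known, and the part of Nab2 in the falls of Stat6 was not tested.

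**Figure D3:**
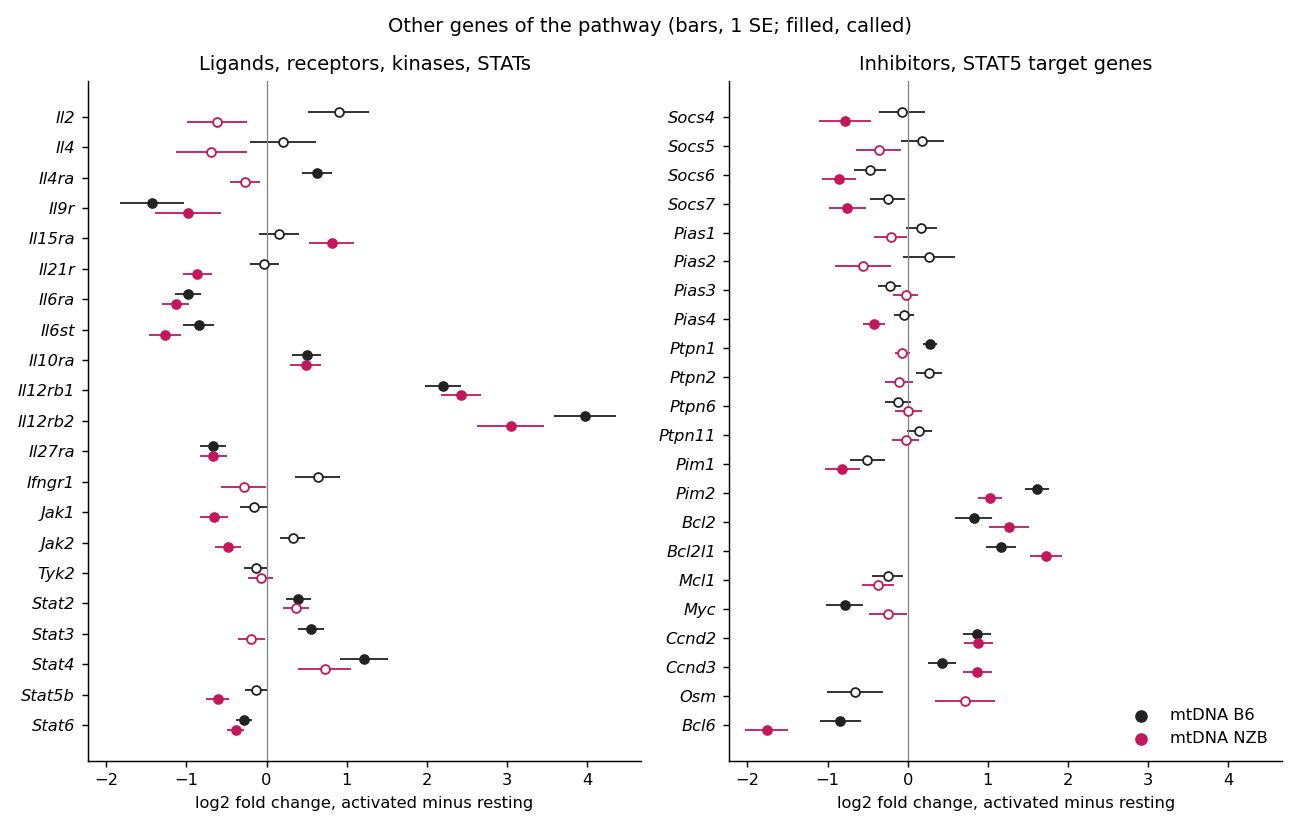
Log2 fold change of activated over resting libraries (horizontal axis) for other pathway genes tested, in mtDNA B6 and mtDNA NZB cells, with bars of 1 SE and filled points for values called. Il12rb2 and Il12rb1 lie farthest to the right and Bcl6 in mtDNA NZB farthest to the left.

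Of 12 inhibitors from the SOCS, PIAS and phosphatase families, 1 rose in mtDNA B6 and 4 fell in mtDNA NZB, of which 1, Socs6, at -0.62 (adjusted p = 0.0265), was called without resting replicates 5 and 6. Of all genes tested, 22.4% rose and 24.5% fell in mtDNA B6, and 25.2% rose and 28.4% fell in mtDNA NZB. Of 10 known STAT5 target genes outside the suppressors, 5 rose and 2 fell in each mtDNA group. Without those replicates the counts in mtDNA NZB were again 5 and 2, but Pim1, at -0.55 (adjusted p = 0.055), was no longer called and Myc, at -0.52 (adjusted p = 0.0474), was. Pim2, a survival kinase, rose from a median of 53.4 to 170 CPM in mtDNA B6 (log2 fold change 1.61, SE 0.15, adjusted p = 3.41e-09) and from 65.4 to 148 CPM in mtDNA NZB (1.03, SE 0.15, adjusted p = 3.94e-06). Bcl2l1, which encodes the survival protein BCL-XL, rose by 1.16 (SE 0.19, adjusted p = 1.47e-05) and 1.73 (SE 0.20, adjusted p = 1.37e-07). Bcl6, a repressor that STAT5 is known to hold down, fell by 0.84 in mtDNA B6 (SE 0.26, adjusted p = 0.00892) and by 1.76 in mtDNA NZB (SE 0.27, adjusted p = 6.73e-06). Among the 46 other pathway genes with a promoter window, 3 held the motif, beside 8.77% of all promoters searched. Of these, Bcl6 and Il12rb2 moved in opposite directions and the third was Jak2. Socs6, Pias2 and Ptpn2, on chromosome 18, had no window because that chromosome was not searched.

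At rest, Stat5a alone of the 10 genes was called between cells of the 2 mtDNAs, with a log2 fold change of mtDNA NZB over mtDNA B6 of 1.14 (SE 0.29, adjusted p = 0.0378), or 1 of 10 genes beside 2.76% of all genes tested. Resting mtDNA NZB replicates 1 to 4 held 105, 119, 92.0 and 87.0 CPM and the mtDNA B6 libraries 81.8 to 102 CPM, while replicates 5 and 6 held 439 and 323 CPM. The difference was 0.04 (adjusted p = 0.971) without replicates 5 and 6, chosen after the values were seen. The call was also lost when any one of 7 libraries was left out (resting mtDNA NZB replicate 5 or 6, or resting mtDNA B6 replicate 1, 3, 4, 5 or 6), with values of 0.70 to 1.32 over the 24 such fits, and with library set as a term (0.95, adjusted p = 0.144). For the other 9 genes the differences lay between -0.36 for Jak3 (SE 0.16, adjusted p = 0.204) and 0.78 for Cish (SE 0.44, adjusted p = 0.313), which was -0.03 (adjusted p = 1) without replicates 5 and 6. Without them Jak3 was at -0.18 (adjusted p = 0.687) and Socs3 at -0.50 (adjusted p = 0.0938), and the 9 genes lay between -0.50 and 0.33. The 95% intervals were narrow for Il2rb, at -0.21 to 0.41, and wide for Il2ra, at -0.93 to 1.22.

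Replicates 5 and 6 of the resting mtDNA NZB group differed from other resting libraries in further genes and in markers of other cells. Replicate 6 had the lowest summed T cell markers of all 12 resting libraries, at 1716 CPM, the highest myeloid sum, at 2825 CPM, and the highest granulocyte sum, at 12050 CPM against at most 4224 CPM elsewhere at rest. Replicate 5 had a T cell sum of 2783 CPM, a myeloid sum of 544 CPM and a granulocyte sum of 239 CPM, the lowest of the 12. Their B cell sums, 215 and 214 CPM, were the lowest of their group. The part of these cells in the values of replicates 5 and 6 was not tested. Of 10566 genes tested, 145 were over 2 times the highest of 9 other resting libraries in both and 64 were under 1/2 of the lowest, leaving out the smallest library. Crem, a cAMP-responsive transcription factor, was at 374 and 508 CPM there and at most 43.1 CPM in those 9 libraries. The nuclear receptor gene Nr4a3 was at 194 and 292 CPM against at most 22.6 CPM (both chosen after their values were seen). Within the pathway, Stat3 was at 492 and 579 CPM against 221 to 269 CPM in the same 9 libraries. Stat5b was at 269 and 330 CPM against 131 to 192 CPM in them. Il2ra, at 1.38 and 3.21 CPM, and Il2rb, at 125 and 132 CPM, were not above the other resting libraries. Of the 44 other pathway genes tested, 5 were called higher in resting mtDNA NZB cells, namely Il2 (1.53, SE 0.39, adjusted p = 0.0385), the IL-4 receptor gene Il4ra (0.93, SE 0.19, adjusted p = 0.0265), the IL-21 receptor gene Il21r (0.85, SE 0.19, adjusted p = 0.0298), Stat3 (0.61, SE 0.17, adjusted p = 0.0475) and Stat5b (0.52, SE 0.14, adjusted p = 0.0427), and 0 were called without replicates 5 and 6. The last 1000 bases of Stat5a, chr11:100775066-100776065, reach into the Stat3 gene on the other strand, whose lowest position is 100775924. Stat3 held 23787 UMIs against 7774 for Stat5a. The last 1000 bases of the canonical Stat3 transcript, 100777641-100778640, lie outside that overlap. Reads from the overlap itself cannot be assigned without strand.

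**Figure D4:**
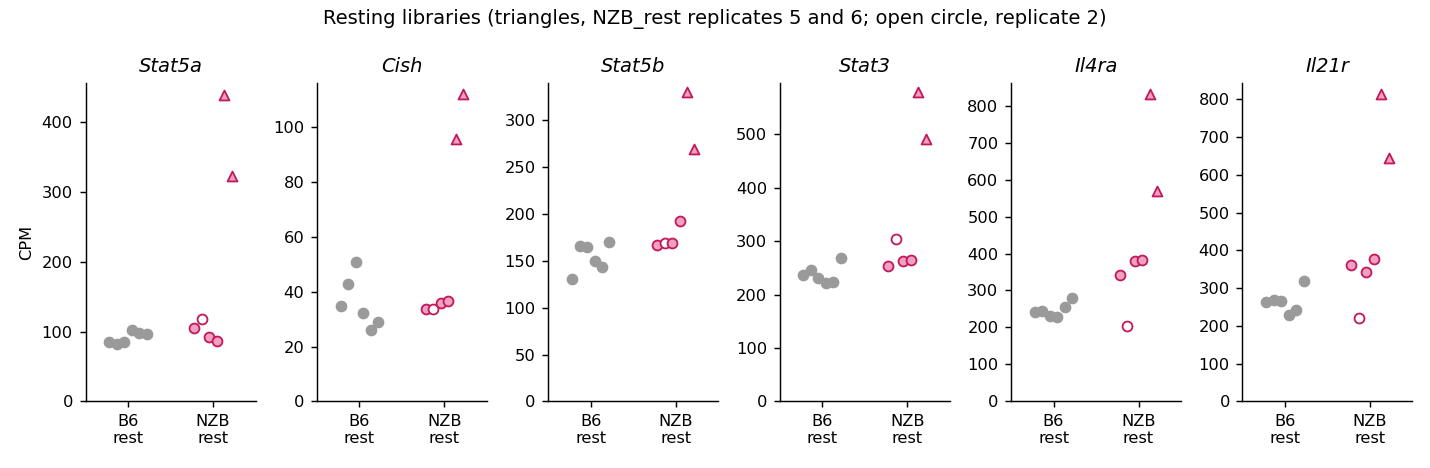
CPM (vertical axes, linear, from 0) of 6 genes in the 12 resting libraries, with mtDNA NZB replicates 5 and 6 as triangles and replicate 2 as an open circle. Both triangles lie above every other resting library for Stat5a, Cish, Stat5b, Stat3, Il4ra and Il21r.

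After activation no gene of the 10 differed by mtDNA, beside 0% of all genes tested (edgeR's quasi-likelihood test; 327 genes and none of the 10 at an unadjusted p under 0.05, and 0 genes by DESeq2). Levels in mtDNA NZB were nominally higher for Socs2, with a log2 difference of 0.78 (95% interval -0.03 to 1.60), Cish, with 0.73 (-0.10 to 1.56), and Il2ra, with 0.47 (-0.13 to 1.06). The groups overlapped for each, since the lowest 3 libraries of mtDNA NZB were within the mtDNA B6 range or below it for Socs2, Cish and Il2ra. Intervals for the remaining genes were -0.05 to 0.53 for Il2rb, -0.30 to 0.31 for Il2rg, -0.31 to 0.36 for Socs3, -0.53 to 0.11 for Jak3, -0.62 to 0.41 for Il7r, -0.49 to 0.69 for Stat5a and -0.58 to 0.78 for Socs1. These bound the difference, and do not show that the levels were alike.

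The response itself, tested as the mtDNA NZB change minus the mtDNA B6 change, differed for none of the 10, beside 0% of all genes (1512 genes at an unadjusted p under 0.05, and 1 gene by DESeq2). Stat5a had a difference of -1.04 (SE 0.40, adjusted p = 0.246) and was the only one of the 10 at an unadjusted p under 0.05. With replicates 5 and 6 of the resting mtDNA NZB group left out, the difference came to 0.04 (adjusted p = 1). The difference was 0.93 for Socs2 (SE 0.66, adjusted p = 0.536), 0.32 for Il2ra (SE 0.60, adjusted p = 0.862) and 0.14 for Il2rb (SE 0.21, adjusted p = 0.808). Thus genes called in 1 mtDNA group and not in the other are not shown to respond differently. Among them are Socs3, Stat5a, Jak1, Jak2, Stat2, Stat3, Stat4 and Stat5b.

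Within the activated libraries, the order of the alpha and beta receptor chains, Cish and Socs2 was alike. The 6 libraries with the most Il2ra, activated mtDNA B6 replicates 3, 4 and 5 and activated mtDNA NZB replicates 1, 2 and 5, were also the 6 with the most Il2rb, Cish and Socs2. They held 86.2 to 180 CPM of Il2ra, 638 to 1059 CPM of Il2rb, 219 to 489 CPM of Cish and 186 to 445 CPM of Socs2. The other 6 held 42.0 to 66.4 CPM of Il2ra, 485 to 589 CPM of Il2rb, 80.3 to 145 CPM of Cish and 59.6 to 149 CPM of Socs2. This order was noticed in the data, so the correlations of log2(CPM + 1) that follow describe it and carry no test. Over the 12 libraries, Il2ra went with Socs2 at Pearson's r = 0.957 and Spearman's rho = 0.958, with Cish at r = 0.935 and rho = 0.881, and with Il2rb at r = 0.915 and rho = 0.923. Of 10564 other genes, 5, 30 and 67 had an r at least as high as Socs2, Cish and Il2rb, each counting itself, or 0.0473%, 0.284% and 0.634%. Without the 2 libraries farthest from the median of Il2ra, r was 0.945, 0.911 and 0.899. In the 6 mtDNA B6 libraries alone r was 0.990, 0.915 and 0.873, and in the 7 activated libraries of library set 1 it was 0.987, 0.972 and 0.917. No r is given for mtDNA NZB alone, where 3 libraries at 54.4 to 65.4 CPM of Il2ra stood apart from 3 at 138 to 180 CPM, and the other library sets held too few activated libraries. In mtDNA B6, replicates 1, 2 and 6 likewise stood apart from replicates 3, 4 and 5 in Cish, at 80.7 to 93.9 against 219 to 231 CPM. Socs2 did so too, at 59.6 to 102.5 against 186 to 246 CPM, so the r values of mtDNA B6 include this step. The 7 libraries of library set 1 also fell apart in Il2ra, at 42.0 to 66.4 against 114.9 to 171.5 CPM. All r values within library set 1 therefore include such a step.

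Jak3 ran against Il2ra, with r = -0.670 and rho = -0.881, and r = -0.739 without the 2 farthest libraries, and 8.6% of the other genes had an r at least as low. The same 6 libraries were the 6 lowest in summed Cd8a and Cd8b1, at 82.0 to 185 CPM against 205 to 534 CPM in the other 6, and the 6 lowest in summed B cell markers. Il2ra and the CD8 sum had r = -0.892, rho = -0.881 and r = -0.852 without the 2 farthest libraries, and -0.930 within library set 1. With the B cell sum r was -0.794, rho -0.839, r without the 2 farthest -0.710 and within library set 1 -0.791. The sum of 4 regulatory T cell markers had r = 0.903, rho = 0.860 and r = 0.810 without the 2 farthest libraries. Its median was 605 and 733 CPM in activated mtDNA B6 and mtDNA NZB libraries. Most of it was Tnfrsf18, with medians of 471 and 591 CPM, while Foxp3 had 16.3 and 17.2 CPM. In resting libraries Tnfrsf18 had medians of 132 and 140 CPM, and Foxp3 of 15.7 and 14.0 CPM. The part of CD8 T cells, B cells and regulatory T cells in the spread of Il2ra, Il2rb, Cish and Socs2 was not tested.

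**Figure D5:**
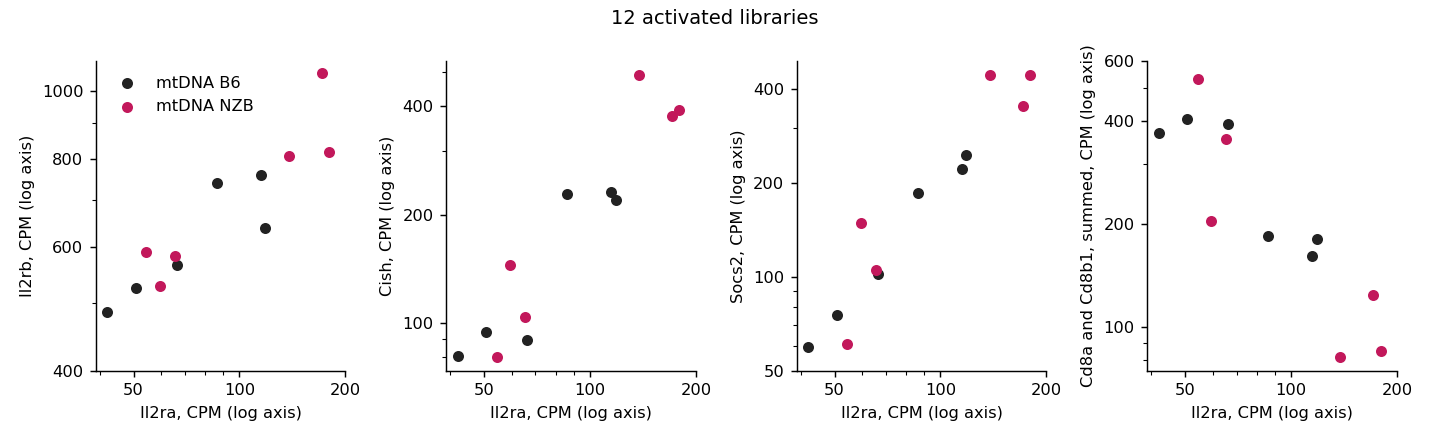
Il2ra (horizontal log axes, CPM) against Il2rb, Cish, Socs2 and the sum of Cd8a and Cd8b1 (vertical log axes) in the 12 activated libraries, 1 point a library, black for mtDNA B6 and pink for mtDNA NZB. The first 3 rise with Il2ra over libraries of both mtDNA groups and the CD8 sum falls.

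Over all 23 libraries of at least 500000 UMI counts, resting and activated together, the genes whose log2 CPM was most like that of Il2ra were Il2rb (Pearson's r = 0.988), Glipr2 (0.980) and Mtch1 (0.979). Those most like Cish were Lif (0.954), Mthfd2 (0.946) and Tnfrsf4 (0.936), and those most like Socs3 were Cdadc1 (0.838), Gadd45b (0.836) and Ctsl (0.832). These values describe shared patterns that include the step from rest to activation, and carry no test.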

How the data were processed

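The authors made 24 3' end RNA libraries (bulk MARS-seq) with UMIs. Per the study's methods and the labels, they trimmed reads with cutadapt, dropped reads under 30 bases, mapped with STAR to the last 1000 bases of genes (GRCm39) and counted with HTSeq; versions and strand are not given in the sources used here. The deposited counts are UMI counts per gene corrected for UMI saturation; a second deposited count table, read here as counts before UMIs were collapsed, served as an alternative and to form the library sets. In the tables, 1 column was not used.

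Counts were fitted in edgeR 4.0.16 (R 4.3.3; limma 3.58.1) with TMM scaling, filterByExpr and one model of the 4 groups over 24 libraries (glmQLFit, glmQLFTest), adjusted by Benjamini-Hochberg. SE is the log2 fold change over the square root of F, and 95% intervals use 20 residual degrees of freedom. The study used DESeq2, here an alternative (1.42.0). Scripts were tested on simulated data. All 60 pairs of replicates differed beyond counting noise (chi-square per degree of freedom at least 2.77). The members and gene lists were chosen with earlier results of these data known. Text names the 10 genes, the tested ligands, kinases and STATs, up to 3 rises and 3 falls among other called pathway genes per comparison, and the 3 genes most like Il2ra, Cish and Socs3; further genes are said to be chosen after seeing values. A gene of the lists is counted in the totals but its values are not reported here. Alternatives were the tool, scaling, filters, count table, libraries, library set, replicate numbers, depth and fold size. Gene positions and promoter sequence come from GENCODE's annotation and the GRCm39 genome.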

Additional observations from a re-analysis of the deposited data

Results flagged for a closer look

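Of 40 sets of 6 libraries (10 genes in 4 groups), 1 held a library far from the others by Dixon's test, where chance flags about 1 set in 20. Il2rb was at 84.7 CPM in resting mtDNA NZB replicate 2, against 123 to 138 CPM in the other 5 libraries. That library had 51409 UMI counts, and its value rests on 5 UMIs of Il2rb.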

How the results depend on the processing

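Il2ra, Il2rb, Cish and Socs2 were called on activation in both mtDNA groups under all 40 alternatives run for them, and no called value of the 10 genes changed sign. Of 17 called values, 8 lost the call under at least 1 alternative, 2 others gained one, and 23 of 33 uncalled values changed sign somewhere. The count called on activation in mtDNA B6 (8) was 4 after thinning to 600000 UMI counts and 5 with a log2 limit of 1; the count in mtDNA NZB (8) was 5 in 21 libraries (without resting mtDNA NZB replicates 2 and 6 and activated replicate 6) with the label number as replicate block. The resting count (1) was 0 with the other count table, only the 2 groups, 21 libraries, library set as a term (24 or 21 libraries), thinning, and without resting mtDNA NZB replicates 5 and 6 or 2, 5 and 6. Counts of other pathway genes on activation (21 in mtDNA B6, 25 in mtDNA NZB) were 7 and 13 after thinning and 7 and 9 with the log2 limit. Their resting count (5) was 3 with no or a stricter low-count filter, 2 with the other count table, 0 with only the 2 groups, library set as a term or thinning, 1 with the log2 limit, 2 in 21 libraries with library set, 0 without replicates 5 and 6 and 1 without 2, 5 and 6. Leaving out 1 library at a time gave 7 to 8, 8 to 9, 0 to 1, 0 to 0 and 0 to 0 of the 10 genes (activation in mtDNA B6 and NZB, rest, activated, response), and 19 to 24, 22 to 25 and 0 to 10 other pathway genes (activation in each, rest). The cause of these shifts was not tested, beyond the lower depth of thinning and the fewer libraries.

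The fits without resting replicates 5 and 6, those that pair 21 libraries with another term, and all those of the resting count of other pathway genes were chosen after seeing the data. Over 9 shared label numbers, the correlation of deviations ran from -0.158 to 0.253, which cannot exclude pairing. No label says what the numbers mean, so replicate numbers were not read as pairs. With label number as replicate block, 7 and 6 of the 10 genes were called on activation, and with title number 7 and 8. The calls lost with label number were Jak3 in both mtDNA groups and Stat5a in mtDNA NZB.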
